A study of Mus musculus with 10 samples.

Results

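Tuft cells are the rare chemosensory cells of the intestinal epithelium, and 10 genes that mark them or make their lipid mediators were followed through the libraries of sorted mouse crypt cells. The genes were found by name among the 35006 gene rows of each count file, and all 10 were present. They are the kinase gene Dclk1, the cation channel gene Trpm5, the transcription factor genes Pou2f3 and Gfi1b, the cytokine gene Il25, the adaptor gene Sh2d6, the actin-binding protein gene Avil, and the eicosanoid genes Alox5ap, Ltc4s and Hpgds.

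The cells came from C57BL6/J mice that carried EF1a-OSCAR, a reporter of the transcription elongation kinase CDK9 in which a VeN90 fluorescent protein is quenched by phosphorylation and mCherry from the same EF1a promoter gives the level of expression. The cassette sat in the Rosa26 locus, and its stop element had been removed in the germ line by Vasa-Cre, so all 5 populations carried the same alleles and none was a control without the reporter. Live EpCAM+ small-intestinal crypt cells were sorted into OSCARlow EF1alow (P1), OSCARhigh EF1alow (P2), OSCARlow EF1ahigh (P3), OSCARmed EF1alow (P4) and OSCARmed EF1ahigh (P5) cells. A high OSCAR ratio stands for low CDK9 activity. RNA of 10000 cells per population was sequenced in 2 replicates each, 10 libraries in all, and the age of the mice was not given in the sources used here.

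The labels of P2 and P3 are in doubt. The study's own account places the secretory cells, tuft cells among them, in the OSCARlow EF1ahigh gate, whereas the libraries labelled P2 held the highest Paneth, goblet and enteroendocrine marker levels. No library was renamed, P2 and P3 below are the labels, and any direction drawn between them rests on these labels. The libraries held 3857612 to 6485823 counts on genes, and 3 counts, the smallest number taken as detected, stood for 0.463 to 0.778 CPM, reads scaled to the library total. The P3 libraries stood apart from the rest, with 58.6% and 35.5% of counts on mitochondrial genes against 1.02% to 4.98% elsewhere. Replicate 1 of P3 also had the fewest genes detected, 12694. In every population replicate 1 carried Xist, at 833 to 7768 normalised counts, and replicate 2 did not, at 0.949 to 7.17, while the Y-linked gene Eif2s3y was at 240.4 to 352 in replicate 2 and at 1.28 or less in replicate 1. The replicates of each population thus came from mice of different sex. Summed levels of 6 epithelial genes (Epcam, Cdh1, Krt8, Cldn7, Cldn3 and Elf3) were 15709 to 33903 normalised counts across the libraries.

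Tuft cells take their identity from the POU-domain factor encoded by Pou2f3, which binds octamer-like DNA, and sense luminal signals through a taste-like cascade that ends in the channel TRPM5. They are known for interleukin 25, which acts on innate lymphoid cells, and for making prostaglandin D2 and cysteinyl leukotrienes from arachidonic acid. FLAP, the product of Alox5ap, presents arachidonic acid to 5-lipoxygenase, Ltc4s encodes the synthase of leukotriene C4, and Hpgds encodes the haematopoietic prostaglandin D synthase.

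In the GENCODE annotation of NCBIM37, the build the counts were made on (mm9), the 10 genes are all protein coding. Dclk1 lies at chr3:55046448-55342986, Trpm5 at chr7:150255058-150280547, Pou2f3 at chr9:42932022-43018452, Gfi1b at chr2:28464970-28477502 and Il25 at chr14:55551608-55554671. Alox5ap lies at chr5:150076634-150099621, Ltc4s at chr11:50049971-50052118, Hpgds at chr6:65067287-65094902, Sh2d6 at chr6:72463638-72471628 and Avil at chr10:126437765-126458050. Exons of Trpm5, Avil and Ltc4s overlap exons of Tssc4, Tsfm and Gm16641 on the opposite strand, and reads were counted without regard to strand, so the counts of these genes are uncertain by what was shared.

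The bases before the start of 4 members are shown because Pou2f3 encodes an octamer-binding factor. They are the 250 bases upstream of the start in RefSeq, build GRCm38.p6, which is not the build of the counts, and the capitals mark the octamer ATGCAAAT or its first 7 letters, ATGCAAA, on either strand. Trpm5 and Sh2d6 had 2 of the largest differences between P2 and the rest. Avil and Hpgds held the letters searched.

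Trpm5 (chr7:143094643-143094892, minus strand): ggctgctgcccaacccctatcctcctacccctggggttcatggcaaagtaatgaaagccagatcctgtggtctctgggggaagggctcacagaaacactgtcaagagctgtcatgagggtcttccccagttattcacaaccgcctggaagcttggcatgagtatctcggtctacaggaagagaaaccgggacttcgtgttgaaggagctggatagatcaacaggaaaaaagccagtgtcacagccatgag
Sh2d6 (chr6:72520037-72520286, minus strand): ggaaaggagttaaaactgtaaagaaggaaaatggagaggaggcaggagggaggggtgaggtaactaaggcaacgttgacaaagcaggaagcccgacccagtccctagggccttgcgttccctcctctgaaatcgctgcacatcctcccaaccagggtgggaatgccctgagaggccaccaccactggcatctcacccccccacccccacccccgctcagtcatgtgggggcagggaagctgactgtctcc
Avil (chr10:127000459-127000708, plus strand): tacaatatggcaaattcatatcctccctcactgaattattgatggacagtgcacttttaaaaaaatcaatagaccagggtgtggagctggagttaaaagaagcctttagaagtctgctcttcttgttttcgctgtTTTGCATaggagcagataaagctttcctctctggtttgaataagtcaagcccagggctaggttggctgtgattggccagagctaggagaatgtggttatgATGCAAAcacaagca
Hpgds (chr6:65144731-65144980, minus strand): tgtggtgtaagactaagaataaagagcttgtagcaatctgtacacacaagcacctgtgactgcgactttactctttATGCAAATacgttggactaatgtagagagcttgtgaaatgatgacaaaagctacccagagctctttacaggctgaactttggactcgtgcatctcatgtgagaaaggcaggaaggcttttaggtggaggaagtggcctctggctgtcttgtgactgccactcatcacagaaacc

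The octamer ATGCAAAT stood 174 to 167 bases before the start of Hpgds, and 526 of all 32851 promoter entries, or 1.60%, held it in the same window. The 7-letter form, which lies inside the octamer, occurred at 2 places before Avil, at 115 to 109 bases in the reverse orientation, TTTGCAT, and at 15 to 9 bases. It was in 1355 entries, or 4.12%. Of the 10 members, 7 had an entry, Dclk1 with 2, and of these only Hpgds held the octamer and only Hpgds and Avil the 7-letter form. Pou2f3, Il25 and Alox5ap had no entry. The letters were chosen with the sequences in view, and a match describes the window only.

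The main question for these genes was in which population they were highest. On normalised counts, both P2 libraries were above all 8 other libraries for 7 of the 10 members. The same 7, Sh2d6, Pou2f3, Alox5ap, Trpm5, Avil, Dclk1 and Hpgds, were higher in P2 than in the average of the other 4 populations. Of the 9 members with enough counts to be tested, these 7 were past the threshold (adjusted p under 0.01, quasi-likelihood test of edgeR, 13706 genes tested), none was lower, and the median log2 fold change was 3.08 against -0.000932 over all genes. Among the 9, Gfi1b reached the filter on low counts through the P2 libraries alone, which favours a difference, and was not called. Without it, 7 of 8 members were called, at a median log2 fold change of 3.14. Of the 13250 genes that reached the filter outside P2, 14.4% were called higher, and their median log2 fold change was -0.0412. The background is high in this contrast. Of all genes tested, 16.3% were called higher in P2, and 21.2% had both P2 libraries above the rest on normalised counts. On plain CPM, Hpgds did not have both P2 libraries above the rest. Its replicate 1 of P2 was at 5.02 CPM, below replicate 1 of P1 at 7.21 and the P4 libraries at 5.56 and 5.25. RNA from 10000 cells per library does not tell more tuft cells from more tuft RNA per cell.

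**Figure D1:**
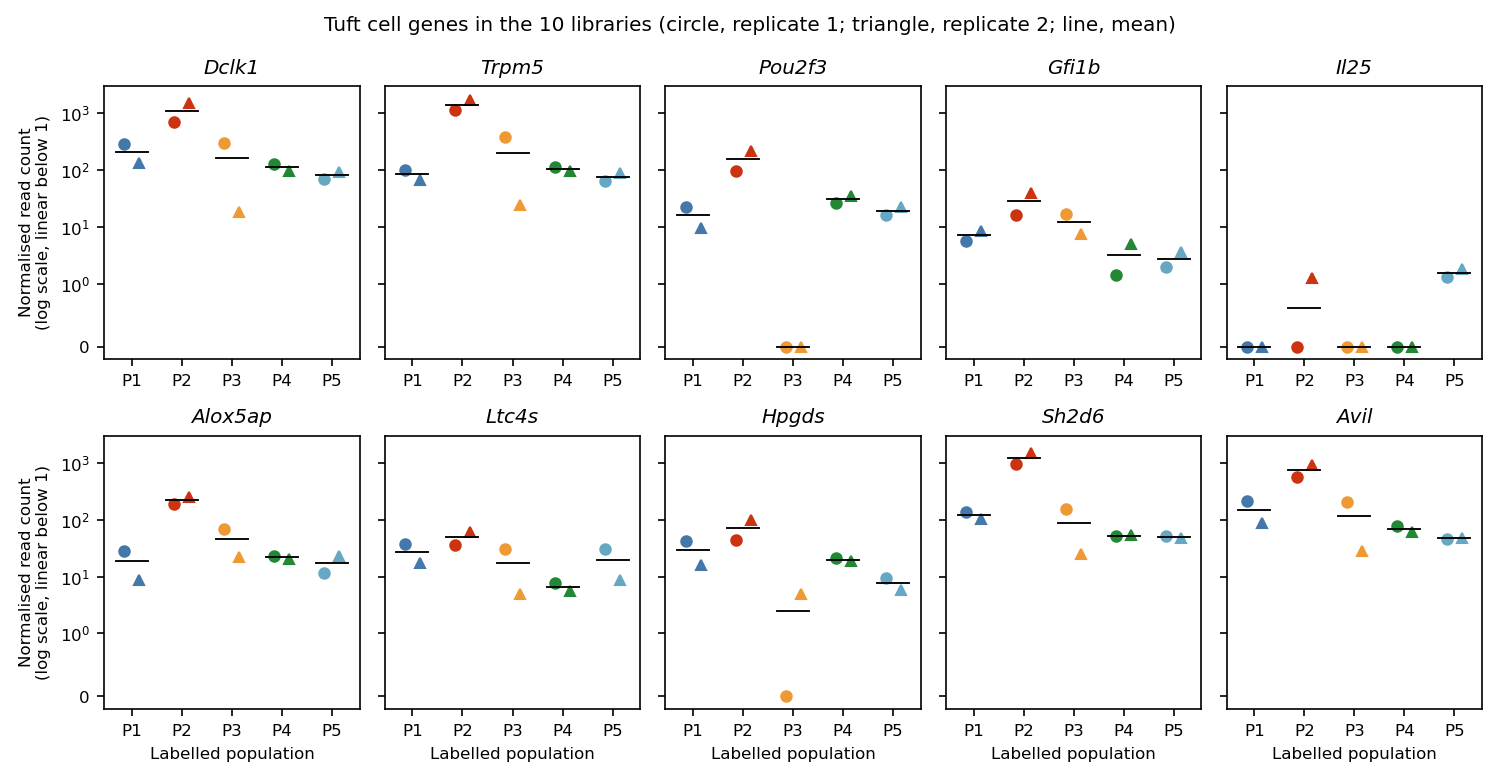
Normalised read counts of the 10 genes (vertical axis, log scale, linear below 1) in the 5 labelled populations (horizontal axis), with replicate 1 as circles, replicate 2 as triangles and the mean of each population as a line. Trpm5 was at 1137 and 1674 in P2 and at 24.5 to 380.5 in the other libraries, Pou2f3 was at 0 in both P3 libraries, and the replicates of P3 lie far apart for Dclk1, Trpm5, Sh2d6 and Avil.

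Trpm5, the channel that depolarises the cell at the end of the taste cascade, was at 1137 and 1674 normalised counts (counts divided by DESeq2 size factors, replicate 1 then 2) in P2. It was at 380.5 and 24.5 in P3, 63.9 and 87.8 in P5, 111 and 94.8 in P4, and 101 and 67.4 in P1. The P2 libraries stood clear of all others, and replicate 1 of P3 came next. The log2 fold change of P2 against the average of the others was 3.68 ± 0.56 (SE), a 12.8-fold difference (edgeR's adjusted p = 0.000789).

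Sh2d6, which encodes an SH2 domain adaptor, had the lowest adjusted p of the members. Its normalised counts were 958 and 1502 in P2, against 152 and 24.5 in P3, 51.1 and 48.3 in P5, 52.1 and 53.5 in P4, and 137 and 102 in P1. P2 was 16.9-fold higher than the average of the others (log2 4.07 ± 0.39, SE, edgeR's adjusted p = 7.01e-05). The replicates of P4 and of P5 were close together, and both lay below those of P1.

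Dclk1, the kinase most used to stain tuft cells, was at 698 and 1488 normalised counts in P2, against 300.5 and 18.4 in P3, 69.6 and 90.7 in P5, 127 and 97.6 in P4, and 289.7 and 130.1 in P1. Avil, which encodes the actin-severing protein advillin of the tuft, was at 569 and 920.04 in P2, against 207 and 28.2 in P3, 46.0 and 48.3 in P5, 77.8 and 60.1 in P4, and 212 and 86.4 in P1. In both, P2 came first and replicate 1 of P1 and of P3 next, with P3 ahead of P1 for Dclk1 and P1 ahead for Avil. Against the average of the others, Dclk1 was 8.22-fold higher in P2 (log2 3.04 ± 0.60, SE, edgeR's adjusted p = 0.00326) and Avil 8.47-fold (log2 3.08 ± 0.49, SE, edgeR's adjusted p = 0.000986).

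Pou2f3, the factor that tuft cells need to form, was at 95.8 and 214 normalised counts in P2, 22.6 and 9.49 in P1, 26.4 and 34.7 in P4, and 16.0 and 21.8 in P5. It had no count in either P3 library. With its libraries pooled, P2 was 65.2-fold higher than P3 when P3 is set at 3 counts over its 2 libraries. It was 13.3-fold higher than the average of the others with P3 at that floor. These values leave out the spread between the P2 replicates. The fitted log2 fold change, 4.75 ± 0.50 (SE, edgeR's adjusted p = 0.000189), depends on the prior count and is no bound. Gfi1b, which encodes a zinc finger repressor also used in the erythroid lineage, was at 16.3 and 39.6 in P2, and its highest value elsewhere, 16.5 in replicate 1 of P3, lay inside that range. Its log2 fold change of 2.39 ± 0.60 (SE) missed the threshold (edgeR's adjusted p = 0.0109) and passed it in 6 of 18 alternatives. Gfi1b counts were low, 2 to 32 per library.

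Il25 could not be tested. It had 6 counts in all, 1 in replicate 2 of P2 and 2 and 3 in the replicates of P5, which is at or under the floor of 3 counts in every library. Il17rb, which encodes a receptor subunit for interleukin 25, was at 168 and 208 normalised counts in P2 and 11.3 to 38.6 elsewhere. It was picked out after its values were seen, so no test is given for it.

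Of the 3 eicosanoid genes, 2 were called higher in P2. Alox5ap was at 192 and 254 normalised counts in P2, against 68.9 and 22.1 in P3, 11.5 and 23.0 in P5, 22.9 and 20.4 in P4, and 28.3 and 8.55 in P1, and was 9.23-fold higher in P2 than in the average of the others (log2 3.21 ± 0.42, SE, edgeR's adjusted p = 0.000376). Hpgds was at 43.4 and 97.7 in P2, against 0 and 4.90 in P3, 9.58 and 5.89 in P5, 20.8 and 18.7 in P4, and 42.5 and 16.1 in P1. It passed the test at log2 2.65 ± 0.51 (SE, edgeR's adjusted p = 0.00293), although the lower P2 library was only just above replicate 1 of P1.

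Ltc4s did not pass. It was at 36.1 and 61.8 normalised counts in P2, against 30.3 and 4.90 in P3, 30.0 and 8.84 in P5, 7.64 and 5.51 in P4, and 37.7 and 17.1 in P1. Replicate 1 of P1 lay between the P2 libraries, and the replicates of P3 and of P5 differed by more than the gap from P2 to their replicate 1. Its log2 fold change was 1.64 ± 0.62 (SE, edgeR's adjusted p = 0.0607). Ltc4s is the shortest of the 10 and shares exon bases with Gm16641.

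Per kilobase of exon, the order of the mean levels in P2 was Sh2d6 at 708 normalised counts, Alox5ap at 252, Trpm5 at 219.7, Avil at 219, Dclk1 at 80.9, Ltc4s at 66.6, Pou2f3 at 57.1, Hpgds at 19.7 and Gfi1b at 15.3. Sh2d6 was above the other members in both P2 libraries on this scale, at 551 and 865. Alox5ap, Trpm5 and Avil did not differ beyond the spread of their replicates, with ranges of 217 to 287, 178 to 262 and 168 to 271. Exon length was taken over all annotated transcripts, which understates genes with many long isoforms such as Dclk1.

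**Figure D2:**
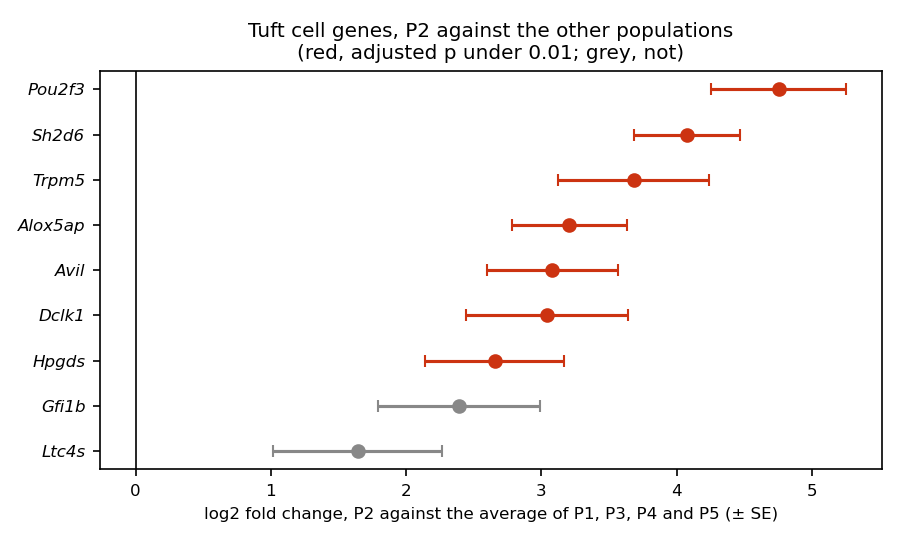
Log2 fold change of P2 against the average of P1, P3, P4 and P5 (horizontal axis, with SE bars) for the 9 tested genes, red where the adjusted p was under 0.01. The values run from 1.64 for Ltc4s to 4.75 for Pou2f3, and Gfi1b and Ltc4s are the 2 in grey. Pou2f3 had no count in P3, so its value depends on the prior count. It was 3.73 with P3 at the floor of 3 counts and 2.87 with both P3 libraries left out.

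The call rested partly on single libraries. Without replicate 2 of P2, which held the higher value of all tested members within P2, 3 members passed (Sh2d6, Pou2f3 and Alox5ap). Dclk1 was also not called without replicate 1 of P2 (edgeR's adjusted p = 0.0102). The log2 fold change of Dclk1 was 2.31 without replicate 2 of P2 and 3.79 without replicate 1 of P3, and that of Trpm5 was 4.42 without replicate 1 of P3. Hpgds was at 1.87 without replicate 2 of P2 and 3.88 without replicate 2 of P3, and without replicate 2 of P2 Pou2f3 was at 3.99 and Gfi1b at 1.51. The log2 fold change of P2 against the others stayed above 0 for each of the 9 tested members whichever library was left out. With both P3 libraries left out, an alternative added after the data had been seen, Pou2f3 was at log2 2.87 in place of 4.75. In that fit 8 members passed, with Gfi1b as the additional gene. Gfi1b reached the filter of the main fit through the P2 libraries alone, which favours a difference.

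Against single populations the members were spread more thinly. P2 was above P1 for 4 of 9 members (Trpm5, Pou2f3, Alox5ap and Sh2d6) where 13.9% of all genes were called higher, with log2 fold changes of 3.25 to 4.04. Against P4 it was 3 (Alox5ap, Sh2d6 and Avil, 3.33 to 4.52) where the background was 8%, and against P5 it was 5 (Trpm5, Pou2f3, Alox5ap, Sh2d6 and Avil, 3.01 to 4.60) where it was 8.75%. Against P3 the 3 were Pou2f3, Hpgds and Sh2d6, where 10.4% of genes were called higher. Sh2d6 was called against each population. These comparisons share the P2 libraries.

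The counts of members moved with the libraries in the fit. P2 against P1 fell from 4 members to 2 without replicate 1 of P1 or of P2, and to 0 without replicate 2 of either. Against P4 the 3 became 1 and 0 without replicates 1 and 2 of P2, 0 without either P4 library, and 6 without either P3 library. Against P5 the 5 became 1 without either P2 library, 3 without either P4 library and 0 without either P5 library. Against P3 the 3 became 1 without replicate 2 of P2 and 6 without replicate 1 of P3. A population left with 1 library was assumed in these fits to vary like the others.

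Between the other populations no member was called by edgeR. For P1 against P3, 2 of 9 members had an unadjusted p under 0.05, as did 6151 of 13706 genes. DESeq2 called 2 members and 3497 genes there. For P1 against P4 and against P5, 1 member in each had an unadjusted p under 0.05, as did 7109 and 6726 genes. DESeq2 called 0 members in both, and 4455 and 4110 genes. By edgeR at the adjusted threshold, 15.6%, 23.4% and 19.8% of all genes were called in these 3 comparisons. For P3 against P4 and P5, 2 and 1 members had an unadjusted p under 0.05, beside 2079 and 1587 genes. DESeq2 called 1 and 0 members there, beside 115 and 39 genes. For P5 against P4 there were 0 members by either measure, beside 350 and 27 genes. In these last 3 comparisons edgeR called 0% of all genes. The fitted log2 differences of the members between P5 and P4 were -1.34 to 1.56.

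The replicates of P3 gave different accounts and are given apart. With 1 library each there is no test, and the ratios below have exact binomial (Clopper-Pearson) 95% intervals that cover counting error only. Dclk1 had 109 counts in replicate 1 and 15 in replicate 2, a ratio of normalised counts of 16.4 (9.49 to 30.2). Trpm5 had 138 and 20, a ratio of 15.5 (9.67 to 26.2). Avil had 75 and 23, a ratio of 7.34 (4.55 to 12.3), and Sh2d6 had 55 and 20, a ratio of 6.19 (3.65 to 10.9). Alox5ap, with 25 and 18, had a ratio of 3.13 (1.64 to 6.08).

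Of the 5 members with a mean of at least 10 counts in P3, 4 were at least 4-fold higher in replicate 1 and none in replicate 2, where 1.85% of 10954 genes were 4-fold higher in replicate 1 and 4.6% in replicate 2. Their median log2 ratio was 2.85 against -0.0210 over all genes. In the other 4 populations no member reached 4-fold in either direction. Of all genes there, 1.85% were 4-fold higher in replicate 1 and 1.28% in replicate 2 in P1, 0.342% and 1.52% in P2, 0.809% and 0.531% in P4, and 1.29% and 0.624% in P5. The ratios of Dclk1 were 2.23 (1.81 to 2.74) in P1, 0.469 (0.417 to 0.526) in P2, 1.30 (1.05 to 1.61) in P4 and 0.767 (0.595 to 0.987) in P5. With plain CPM, 2 members in place of 4 reached 4-fold in P3.

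**Figure D3:**
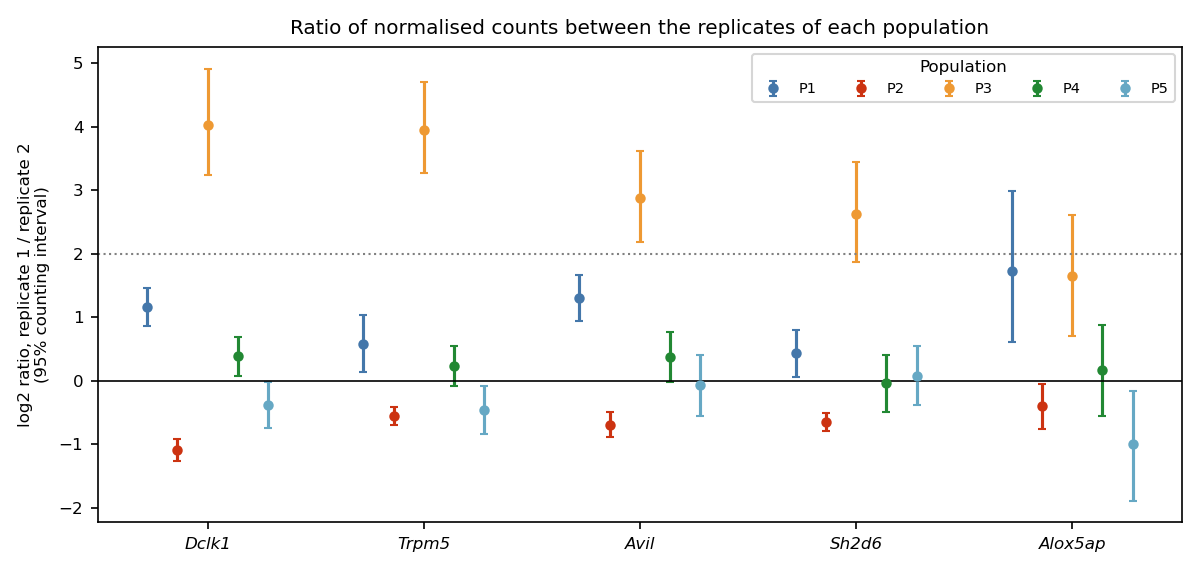
Log2 ratio of normalised counts in replicate 1 over replicate 2 (vertical axis, with 95% counting intervals) for the 5 members with a mean of at least 10 counts in P3, coloured by population, with a dotted line at 4-fold. The P3 points of Dclk1, Trpm5, Avil and Sh2d6 lie above the line, at ratios of 6.19 to 16.4, and no point of another population does.

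The counts of Pou2f3 and Hpgds were not higher in replicate 1. In replicate 1 of P3, Pou2f3 and Hpgds had 0 counts where Trpm5 had 138, which allows up to 2.17 counts of either gene per 100 of Trpm5 at the floor of 3 counts. In the 8 libraries outside P3, Pou2f3 had 8.43 to 36.6 counts per 100 of Trpm5. The lowest of these, in replicate 1 of P2, had a 95% interval of 6.24 to 11.2, and the interval in replicate 1 of P3 was 0 to 2.71. Hpgds had 3.82 to 42.1 per 100 of Trpm5 in the same 8 libraries. In replicate 2 of P3, with 20 counts of Trpm5, the interval for Pou2f3 reached 20.3, and a ratio like that of P2 or P1 was not distinguishable at this depth. For Hpgds the interval in replicate 1 of P3 overlapped that of replicate 1 of P2, 2.43 to 5.73. Replicate 1 of P3 was the library with the fewest genes detected and the highest mitochondrial share, and the part of these in the ratios was not tested.

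Other genes moved the same way between the P3 replicates. All 6 of the T cell and intraepithelial lymphocyte genes with a mean of at least 10 counts, which reached that mean through replicate 1, were at least 4-fold higher there, at a median log2 ratio of 6.70, and the summed level of the 10 genes of that list was 998 normalised counts in replicate 1 and 8.58 in replicate 2. Enteroendocrine genes had 4 of 6 at least 4-fold higher in replicate 1, at a median log2 ratio of 2.71. The stem cell genes, Olfm4 among them, had a median of -1.11 over 6 genes, and 2 of the 6 were at least 4-fold higher in replicate 2. The largest ratios among genes with a mean of at least 50 normalised counts were those of Gzma, Xist, Ccl5, Selplg and Gzmb in replicate 1, and of Eif2s3y, Kdm5d, Ccl9, Prelp and Ddx3y in replicate 2. Gzma, Gzmb and Ccl5 are made by cytotoxic lymphocytes, and Xist, Eif2s3y, Kdm5d and Ddx3y follow sex. Ccl9 and Prelp had 0 counts in replicate 1 and 145 and 130 in replicate 2. Erythroid and platelet genes summed to 802 and 423 in the P3 libraries against 6.06 to 134 elsewhere, through Hba-a1 and Hbb-b1. The part of these cells in the tuft gene levels was not tested.

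**Figure D4:**
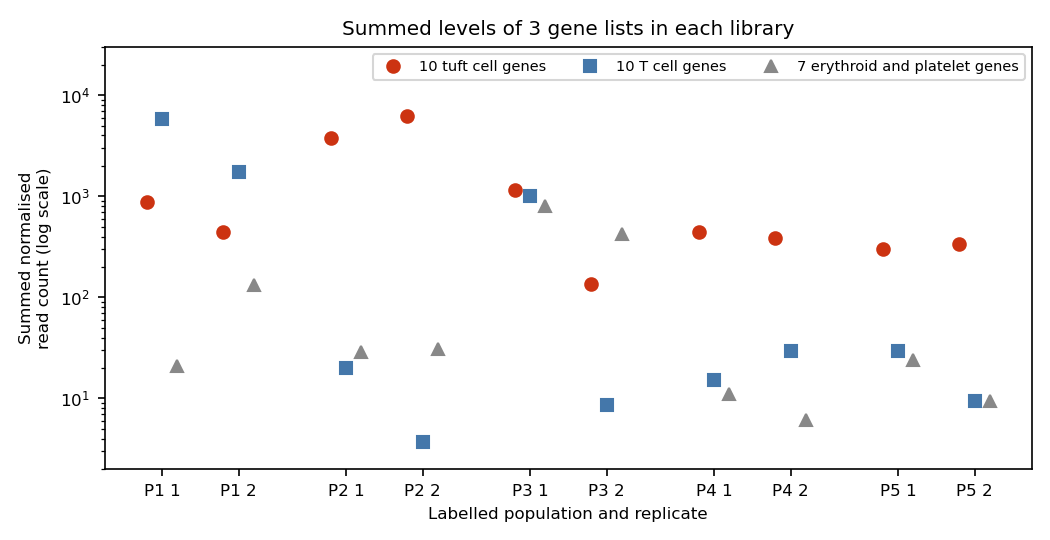
Summed normalised read count (vertical axis, log scale) of the 10 tuft cell genes, 10 T cell genes and 7 erythroid and platelet genes in each library (horizontal axis). The tuft sum was 3745 and 6252 in P2 and 134.8 to 1155 elsewhere, and in P3 the tuft and T cell sums were both lower in replicate 2, at 134.8 and 8.58.

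Which P3 library was kept decided how the tuft genes compared with the other populations. Against replicate 1 of P3 alone, the median log2 fold change of P2 over 9 members was 1.72, and Sh2d6 was at 2.87. Against replicate 2 alone the median was 4.67, and Sh2d6 was at 5.59. For P1, the median over the members turned from -0.61 against replicate 1 of P3 to 2.37 against replicate 2. The fitted log2 value of Trpm5 for P1 was -2.31 against replicate 1 of P3 and 1.74 against replicate 2. That of Sh2d6 was -0.49 and 2.24. With 1 P3 library kept, the spread between the P3 replicates is left out, so these values are given without a test. With both P3 libraries, Trpm5 in P1 against P3 was at log2 -1.28 ± 0.89 (SE) and did not pass (edgeR's adjusted p = 0.290).

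Other cell types moved with P2 too. Summed marker levels in P2 were 2213580 and 3336290 normalised counts for 7 Paneth genes against 2840.5 to 357139 elsewhere, 270427 and 597006 for 7 goblet genes against 9255 to 51690.7, and 28183 and 64194 for 8 enteroendocrine genes against 114 to 3522. The 7 enterocyte genes were at 5798 to 13334.5 in P2 and 12978 to 120352 elsewhere. The part of these in the members' differences was not tested. Mast cells also express Alox5ap, Ltc4s and Hpgds. Of 11 mast cell genes, Cpa3, Mcpt1, Mcpt2, Mcpt4, Cma1, Tpsab1, Ms4a2 and Fcer1a were at 0 in both P2 libraries, and Kit, also made by other crypt cells, supplied 2028 and 1549 of the list's 2049 and 1575 normalised counts. The tryptase gene Tpsb2 had 2 and 7 counts in P2 and 0 or 1 in each other library, and Hdc, which encodes the histamine-forming enzyme, had 10 and 14 in P2 and 0 to 29 elsewhere. In P1, replicates 1 and 2 had 80 and 5 counts of Mcpt1, 13 and 4 of Mcpt2, and 3 and 2 of Cpa3. Fcer1a and Mcpt4 had 6 and 5 counts in replicate 1 of P1 and 0 in replicate 2. Myeloid genes summed to 426 and 226 normalised counts in P1 and to 27.1 and 53.2 in P2. The part of mast and myeloid cells in the levels of the eicosanoid genes, in P1 or in P2, was not tested. T cell genes summed to 19.9 and 3.71 in P2 and to 5819 and 1747 in P1.

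The wider tuft lists were read beside the members. Of 14 chemosensory genes 9 were tested. Sucnr1 and Ffar3 reached the filter on low counts through the P2 libraries alone, which favours a difference, and their calls are not counted. Of the other 7, 3 were called higher in P2 than in the average of the others and none lower, with a median log2 fold change of 1.34. Of all 13250 genes that reached the filter outside P2, 1904, or 14.4%, were called higher and 1467 lower. The values were low outside P2 for Sucnr1, the succinate receptor by which tuft cells sense protists, at 27.1 and 55.6 normalised counts in P2 and 0 to 4.72 elsewhere, and Ffar3, a receptor for short-chain fatty acids, at 74.1 and 146 against 0 to 8.49. Plcb2, the phospholipase of the taste cascade, had a log2 fold change of 2.84 ± 0.44 (SE), and Rgs13, a regulator of G protein signalling, 2.72 ± 0.51. Rgs13 was also at 304 in replicate 1 of P1, and T cell genes were highest in that library. The part of lymphocytes in the level of Rgs13 was not tested. Gnat3, the taste G protein gustducin, failed the filter with 55 counts in all and none in P3, P4 or P5. It was at 9.04 and 48.2 normalised counts in P2 and 4.72 and 5.70 in P1. With the P2 libraries pooled, P2 was 35.0-fold above P4 and 12.7-fold above P3 at the floor of 3 counts over the 2 libraries. The P2 replicates lay far apart, so these values are no bound for replicate 1 alone.

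All 9 transcription regulators were tested, of which Hmx2 and Hmx3 reached the filter through the P2 libraries alone. Of the other 7, 4 were called higher in P2 and none lower, at a median log2 fold change of 1.88. Among all genes that reached the filter outside P2, 14.4% were called higher. Spib, an ETS factor, was at 342 and 537 normalised counts in P2 and 12.3 to 126 elsewhere. Hmx2 was at 14.5 and 55.6 in P2 against 0 to 4.12. Sox9 (log2 2.11 ± 0.20, SE) is also made by Paneth and stem cells. Gm684, the row of the gene now called Pou2af3, whose product is a coactivator of the Pou2f3 protein, had a log2 fold change of 2.15 ± 0.31 (SE, edgeR's adjusted p = 0.000614). The row of Pou2af2, 1810046K07Rik, did not pass at 0.67 ± 0.33 (SE, edgeR's adjusted p = 0.131).

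Of 21 surface and signalling genes 20 were tested, 14 were called higher in P2 and none lower, at a median log2 fold change of 2.93, where 16.3% of all genes tested were called higher and 10.7% lower. All 20 reached the filter on low counts outside P2 as well. Against P1 alone, 7 of the 20 were called higher in P2 and none lower, at log2 fold changes of -1.91 to 3.83. In replicate 1 of P1, where T cell genes were highest, Ptprc was at 627 normalised counts against 84.9 and 124 in P2. Rac2 was at 242 there against 251 and 325 in P2. The part of lymphocytes and of Paneth cells in the levels of this list was not tested. Matk had the largest difference, 20.5-fold, at 430.1 and 715 normalised counts in P2 and 9.92 to 100.02 elsewhere. Cd300lf, a receptor on tuft cells used by murine norovirus, was 18.7-fold higher and Siglec5 (the row of Siglecf) 18.5-fold. All 3 lists were written with earlier results of these data known.

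The eicosanoid enzymes split in direction. Of 20 synthesis genes 12 were tested, 2 were called higher in P2 and 6 lower, with a median log2 fold change of -1.39. In the contrast 16.3% of all genes were called higher and 10.7% lower. The 2 higher genes open the pathway's branches. Alox5, which encodes the 5-lipoxygenase that works with the product of Alox5ap, was at 248 and 448 normalised counts in P2, 89.6 and 36.1 in P1, 71.7 and 31.9 in P3, and 10.5 to 18.1 in P4 and P5 (log2 3.54 ± 0.37, SE, edgeR's adjusted p = 0.000102). Ptgs1, cyclooxygenase-1, was at 231 and 305 in P2, against 52.4 and 1.23 in P3, and 12.1 to 19.4 in P1, P4 and P5 (log2 3.93 ± 0.56, SE, edgeR's adjusted p = 0.000559).

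The lower genes included enzymes that act on leukotrienes once made. Lta4h, which encodes the hydrolase of leukotriene A4, was at 277 and 391 normalised counts in P2 and 992 to 2696 elsewhere, 4.63-fold lower in P2. Dpep1, a dipeptidase that trims leukotriene D4, was 9.36-fold lower, at 43.4 and 129 against 217 to 1365. Ptges2, Mgst2 and Cbr1 were 3.84-fold, 3.38-fold and 3.33-fold lower, and Ptges3, better known as a co-chaperone, 1.89-fold. Ggt1, which trims leukotriene C4, missed the threshold at log2 -2.92 ± 0.75 (SE, edgeR's adjusted p = 0.0118). The enterocyte sums given above were low in P2 but overlapped those of P4, and their part was not tested. Pla2g4a and Hpgd, at 0.27 ± 0.40 and 0.28 ± 0.58 (SE), did not pass. Ptgs2, with 11 counts in all, was not tested.

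**Figure D5:**
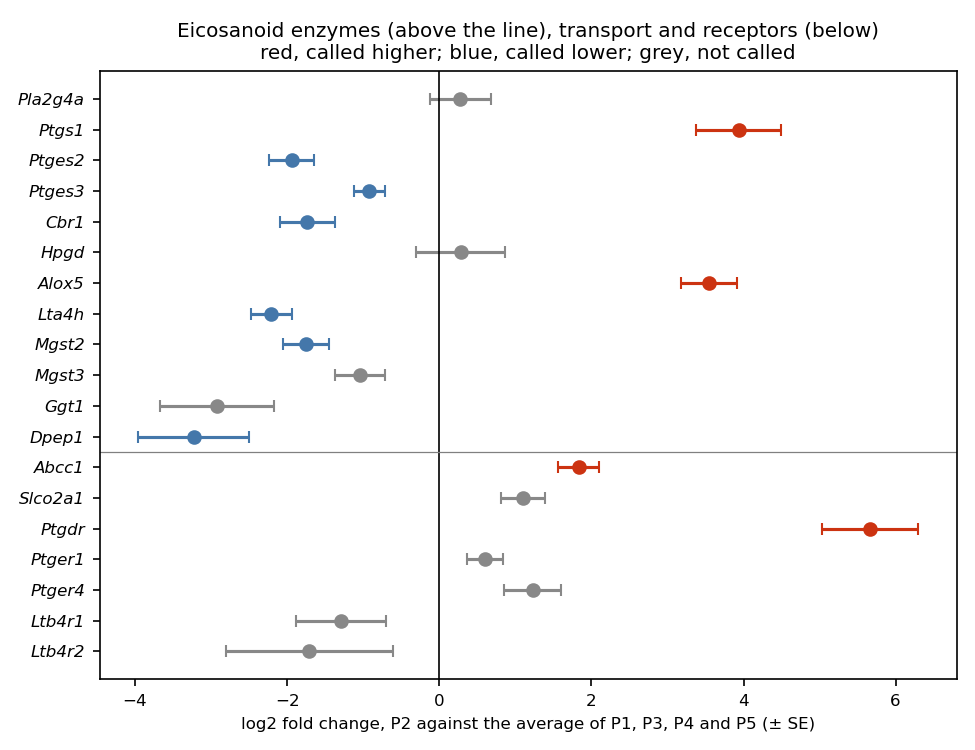
Log2 fold change of P2 against the average of the other populations (horizontal axis, with SE bars) for the tested eicosanoid enzymes (above the line) and for transport and receptor genes (below it), red where called higher, blue where called lower. Ptgs1 at 3.93 and Alox5 at 3.54 stand to the right, and Dpep1 at -3.23 and Lta4h at -2.21 to the left.

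Among 15 transport and receptor genes 7 were tested. Ptgdr reached the filter through the P2 libraries alone, and of the other 6, 1 was called higher and none lower. This share is near the 14.4% called higher among all genes that reached the filter outside P2. Ptgdr, a receptor for prostaglandin D2, was at 48.8 and 50.7 normalised counts in P2 and 0 to 6.60 elsewhere, with no count in P3. With its libraries pooled, P2 was 19.6-fold above P3 at the floor of 3 counts over the 2 P3 libraries. Abcc1, an exporter of leukotriene C4, was at 504 and 300.5 in P2 and 52.4 to 160 elsewhere (log2 1.84 ± 0.27, SE, edgeR's adjusted p = 0.000677). The leukotriene receptor gene Cysltr1 had 0 counts in all libraries, and Cysltr2 had 26 in all.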

How the data were processed

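Poly-A RNA of 10 libraries, 2 for each of 5 sorted populations, was measured. The deposited values are whole-number counts of reads per gene, made by the authors with TopHat2 2.1.0 and Bowtie on mm9 and HTSeq 0.11.2 on exons without regard to strand, after FastQC 0.11.5. Multiply aligned reads stayed uncounted, which makes the counts of close paralogs uncertain. Rows naming no gene held at most 0.000596% of counts and stayed out. From the counts, 206 rRNA gene names were removed, genes were filtered with filterByExpr and scaled with TMM, and the 5 population means were fitted over all 10 libraries with edgeR 4.0.16 (R 4.3.3, 5 residual degrees of freedom). Its quasi-likelihood test was adjusted over 13706 genes by the Benjamini-Hochberg method, at an adjusted p under 0.01, and SE is the log2 fold change divided by the root of its F value. With 2 against 2 libraries, an exact permutation test could not reach 0.05. Normalised counts used DESeq2 1.42.0 size factors. Replicate ratios added 0.5 counts where sizes were counted. Between 3857612 and 6485823 counts per library set the precision. Sequences came from RefSeq, GRCm38.p6.

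Samples were grouped by their labelled population. The members, lists and tests were chosen with earlier results of these data known. Genes were named by rule, except Il17rb, Gnat3, Hmx3, 1810046K07Rik, Ggt1, Pla2g4a, Hpgd, Ptgs2, Cysltr1, Cysltr2, Ptprc and Rac2 of the wider lists. The rule took the 10 members, the 4 called genes with the largest difference in each of 5 wider lists, all list genes called lower, the 10 genes most correlated with the members, the closest gene of each member, the 5 largest ratios each way between the P3 replicates, and marker genes. On simulated data for P2 against the others with 13706 genes, 132 of 200 genes changed 4-fold were called, with 1 unchanged gene. Alternatives covered scaling, filter, threshold, DESeq2's Wald test, a replicate block, the libraries fitted, mitochondrial and rRNA genes, and each library left out. Protein sequences were not analysed here. A gene that the rule names is not reported here. Python 3.11.15, pandas and matplotlib made tables and figures.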

Additional observations from a re-analysis of the deposited data

How the results depend on the processing

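No result changed direction for any of the 9 tested members in P2 against the average of the others, under 18 alternatives each. The number called there (7) stayed within 1.5 times except without replicate 2 of P2, and ran from 3 to 8 over the libraries left out. Over the same omissions the count ran from 0 to 6 for P2 against P1, 1 to 6 against P3, 0 to 6 against P4 and 0 to 7 against P5, and from 0 to 1 for P1 against P3 and against P5. The wider lists held 28 genes called higher and 6 lower of 57 tested, with ranges of 15 to 39 and 2 to 8. The 28 include Sucnr1, Ffar3, Hmx2 and Ptgdr, which reached the filter through the P2 libraries alone. Their calls were set aside in the list counts above. Of all genes tested, 16.3% were called higher and 10.7% lower. The ranges were not corrected for genes of this kind. With no filter on low counts, more members were called, 7 for P2 against P3, 7 against P4, 3 for P1 against P3, 2 for P1 against P4, 3 for P1 against P5, 1 for P3 against P4 and 2 for P3 against P5. DESeq2 called 6 for P2 against P3, 5 against P4, 8 against P5, 2 for P1 against P3 and 1 for P3 against P4. Among all genes it called 3930, 3121, 3316, 3497 and 115 in these comparisons, where edgeR called 2881, 1962, 2177, 2132 and 0. At an adjusted p under 0.05 the counts were 7 for P2 against P3, 8 against P4, 8 against P5 and 2 for P1 against P3. With only the libraries compared in the fit, they were 1 for P2 against P3 and 7 against P4. The share of all genes called without the filter, at 0.05 or with only these libraries is not given here. A larger count of members under these settings is therefore not a stronger result. Plain CPM left 2 members at least 4-fold higher in replicate 1 of P3. The causes were not tested.

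Replicate numbers were not taken to pair the samples. Deviations from the population means correlated at -0.0598 to 0.554 between same-numbered libraries (median 0.255), over 0.1 for 9 of 10 pairs of populations and below it for P2 and P3. The number also follows the sex of the mice, and whether same-numbered libraries came from the same mice was not given. With the replicate number as a block, 7 members were called for P2 against the others and 4 for P2 against P4 in place of 3, and the other counts of members did not change. Depth limits Il25 (6 counts in all), Gfi1b and the P3 libraries most.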

Other observations

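The genes whose levels ran most like the members' across the 10 libraries were found by Pearson's r of log2 CPM with the mean of the members' standardised values, as a description, since the libraries share population, depth and preparation. The 10 closest were Vav1 (r = 0.98), Pik3r5, Ffar3, Spib, Cblb, AW112010, Dmxl2, Bmp2, Slc35f5 and Madd (r = 0.96). Vav1, a guanine nucleotide exchange factor known from lymphocytes, was at 305 and 403 normalised counts in P2 and 13.5 to 90.6 elsewhere. T cell genes summed to 19.9 and 3.71 in P2, and the part of lymphocytes in the level of Vav1 was not tested. Dmxl2 was at 651 and 544 in P2 and 8.58 to 49.1 elsewhere. Slc35f5 and Madd followed the members in order with small differences, at 707 to 775 and 396 to 399 in P2 against 278 to 434 and 164 to 223.

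Single members had other nearest genes. For Dclk1 it was Sh2d7 (r = 0.99), which encodes an SH2 domain adaptor like that of Sh2d6 and was at 549 and 778 normalised counts in P2, 281 and 8.58 in P3 and 44.7 to 202 elsewhere. For Trpm5 it was A4galt, for Pou2f3 Gm11818, for Gfi1b Nt5c3, for Alox5ap Kctd17, for Sh2d6 Cblb and for Avil Pik3r5. For Ltc4s it was H2-T23 (r = 0.96), a non-classical class I gene at 1099 and 1307 in P2 and 265 to 689 elsewhere, and for Hpgds it was Ahi1 (r = 0.97). Gm11818, like Pou2f3, had no count in either P3 library. Between members, r ran from 0.19 for Pou2f3 and Gfi1b to 0.97 for Sh2d6 and Avil.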
